A study of Mus musculus with 8 samples.

Results

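The iron uptake and storage genes are 10 genes that bring iron into a cell, hold it, pass it on or sense it. They were *Tfrc*, *Tfr2*, *Slc11a2*, *Slc25a37*, *Fth1*, *Ftl1*, *Slc40a1*, *Ireb2*, *Aco1* and *Hfe*, chosen by name and role with earlier results of these data known. The gene table held 54532 genes, each of the 10 matched 1 row of it by symbol, and all 10 were among the 13560 genes with enough reads to be tested.

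The libraries were made from LSK cells, the lineage-negative, SCA-1+, c-KIT+ cells of bone marrow that hold stem cells and early progenitors. All mice were Zeb1 fl/fl;Mx1-Cre+ on a C57BL/6 background and 8 to 12 weeks old, and their *Zeb1* was deleted by pIpC, an RNA mimic whose interferon response switches on Mx1-Cre. On day 14 after the last pIpC dose, LSK cells were sorted by the surface protein EpCAM into an EpCAM+ fraction (4 libraries) and an EpCAM- fraction (4 libraries), from 4 mice per group. Every library, in both fractions, thus comes from a pIpC-treated Zeb1-/- animal, no library comes from an undeleted control, and Mx1-Cre acts in any cell that responds to interferon, not in blood cells alone. The comparison addresses how the transcriptome of Zeb1-/- EpCAM+ cells differs from that of Zeb1-/- EpCAM- cells.

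Between 14114491 and 17073546 reads were counted on genes per library. Levels are given as CPM, the read count of a gene relative to the library size, which was scaled by edgeR's TMM factors, and 3 reads, taken as the lowest count that can be told from 0, correspond to 0.168 to 0.222 CPM. *Epcam*, the gene of the sorted protein, was at 187 ± 32.7 CPM (SD, n = 4) in EpCAM+ and at 3.86 ± 3.61 CPM in EpCAM- libraries, with no overlap. Reads of *Zeb1*, counted over the whole gene, were at 14.8 to 23.7 CPM in EpCAM+ and 9.49 to 14.0 CPM in EpCAM- libraries. They were thus higher in EpCAM+ without overlap (log2 fold change 0.72 ± 0.17, SE, edgeR adjusted p = 0.0080). A count over the whole gene does not show the deletion, because it includes exons that the deletion may leave in place.

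Iron bound to transferrin enters cells through transferrin receptor 1, leaves the endosome through a divalent metal transporter, and goes on to mitochondria, to ferritin shells for storage, or out through ferroportin. A pair of RNA-binding proteins, the iron regulatory proteins, senses the iron within the cell and binds hairpins called iron-responsive elements (IREs) in mRNAs. Bound to the 3′ UTR they protect the transferrin receptor mRNA from decay, and bound to a 5′ UTR they block translation of ferritin and ferroportin mRNA. Erythroid precursors, which make hemoglobin, take up more iron than other cells of the marrow.

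The IREs are shown because they are the sequence by which these mRNAs are tied to cellular iron. They were read from the transcripts of GENCODE release M21 (GRCm38) by searching the UTRs of protein-coding transcripts, in the sense orientation only, for a C followed by 5 bases, the 6-base loop CAGTGN and 5 more bases, where the 5 bases on either side of the loop can pair (A-T, G-C or G-T). Each is printed as DNA, 5′ to 3′ along the mRNA, in a window of 30 bases with the loop in capitals. *Tfrc* held 4 in the 3′ UTR (exon 19, plus strand of chromosome 16), and *Fth1* (chromosome 19), *Ftl1* (chromosome 7) and *Slc40a1* (chromosome 1) held 1 each in the 5′ UTR (exon 1).
*Tfrc* 3′ UTR, 32631218 to 32631247: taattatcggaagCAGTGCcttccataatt
*Tfrc* 3′ UTR, 32631597 to 32631626: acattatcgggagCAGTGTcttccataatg
*Tfrc* 3′ UTR, 32631662 to 32631691: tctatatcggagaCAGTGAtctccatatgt
*Tfrc* 3′ UTR, 32631709 to 32631738: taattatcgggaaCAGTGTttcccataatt
*Fth1* 5′ UTR, 9982731 to 9982760, plus strand: tttcctgcttcaaCAGTGCttgaacggaac
*Ftl1* 5′ UTR, 45459779 to 45459808, minus strand: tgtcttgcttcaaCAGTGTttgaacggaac
*Slc40a1* 5′ UTR, 45925465 to 45925494, minus strand: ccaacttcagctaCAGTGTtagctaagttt

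Such a match was found in 160 of 21866 protein-coding genes (0.732%), in a 5′ UTR in 0.142% and in a 3′ UTR in 0.59%, and in 4 of the 10 iron genes. A search that allowed 4 of the 5 pairs, chosen after *Slc11a2* gave no match, found 1 more among the iron genes, in the 3′ UTR of *Slc11a2* (exon 16, chromosome 15, minus strand), and found matches in 4.91% of protein-coding genes.
*Slc11a2* 3′ UTR, 100395153 to 100395182: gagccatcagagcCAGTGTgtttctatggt
The *Slc11a2* match lies in 1 of 6 coding transcripts, Slc11a2-205, and the *Tfrc* matches lie in 1 of 3, Tfrc-201. The *Slc40a1* match lies in 1 of 4, Slc40a1-201, the *Ftl1* match in 1 of 2, Ftl1-201, and the *Fth1* match in 4 of 5. Reads were counted per gene, so transcripts with and without an IRE were not told apart. A match of letters is a description and not a measured binding site.

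Of the 10 iron genes, 4 were lower in Zeb1-/- EpCAM+ than in EpCAM- LSK cells, none was higher, and 6 did not pass the test. The 4 were *Slc40a1*, *Tfrc*, *Slc11a2* and *Aco1*, and the ferritin genes, which were by far the most abundant of the 10, were not among them. In edgeR (quasi-likelihood test, Benjamini-Hochberg adjustment over all tested genes, threshold 0.05, n = 4 per fraction), 42.6% of all tested genes were called, 21.8% higher and 20.8% lower in EpCAM+, so that 4 of 10 called is close to the share of all genes, and all 4 are on the lower side. DESeq2 called the same number, 4 lower and 0 higher, and at an unadjusted p under 0.05 in edgeR 0 were higher. The median log2 fold change was -0.15 over the 10 genes and 0.021 over all tested genes. The same 4 genes had no overlap between the fractions, against 40.1% of all tested genes.

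**Figure D1:**
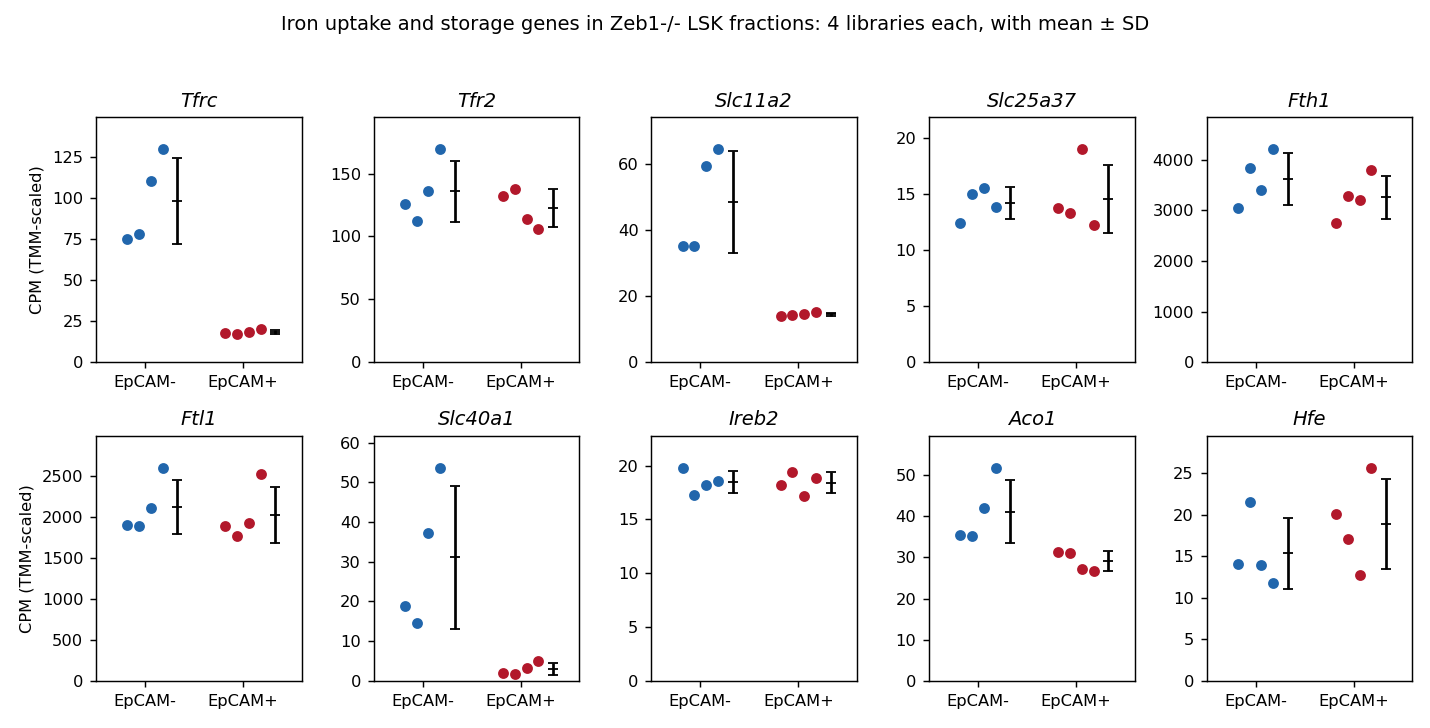
Levels of the 10 iron genes (y axes, CPM on a linear scale from 0) in each Zeb1-/- EpCAM- library (blue) and Zeb1-/- EpCAM+ library (red), in the order of replicates 1 to 4. Black bars give the mean ± SD of 4 libraries. *Tfrc*, *Slc11a2*, *Slc40a1* and *Aco1* do not overlap between the fractions, and the other 6 do.

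*Tfrc* encodes transferrin receptor 1, the main door for transferrin-bound iron (ENSMUSG00000022797, chromosome 16, 32608920 to 32632794). In EpCAM+ replicates 1 to 4 it was at 17.7, 17.6, 18.4 and 20.5 CPM, from 271 to 330 reads. In EpCAM- replicates 1 to 4 it was at 75.3, 78.4, 111 and 129.8 CPM, from 1059 to 1765 reads. The EpCAM+ libraries lay close together and far below all EpCAM- libraries, among which replicates 3 and 4 were the highest. The mean was 18.6 ± 1.34 CPM in EpCAM+ and 98.5 ± 26.3 CPM in EpCAM- (SD, n = 4 each), a log2 fold change of -2.41 ± 0.17 (SE, edgeR adjusted p = 5.6e-05). The level in EpCAM- was 5.31 times that in EpCAM+ (95% interval 4.07 to 6.93), and 1.08% of tested genes had a lower log2 fold change.

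*Tfr2*, the second transferrin receptor, which in erythroid cells pairs with the erythropoietin receptor (ENSMUSG00000029716, chromosome 5, 137569840 to 137587481), showed another pattern. It was at 106 to 137 CPM in EpCAM+ and at 112 to 169 CPM in EpCAM- libraries, so the fractions overlapped. Its log2 fold change was -0.15 ± 0.13 (SE, edgeR adjusted p = 0.368), with a 95% interval of -0.44 to 0.14. Within the EpCAM- fraction its highest values were again those of replicates 3 and 4, at 136 and 169 CPM.

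*Slc11a2* encodes DMT1, the divalent metal transporter that carries iron out of the endosome (ENSMUSG00000023030, chromosome 15, 100387898 to 100425072). It was at 14.2, 14.2, 14.7 and 15.3 CPM in EpCAM+ replicates 1 to 4, from 217 to 263 reads. In EpCAM- replicates 1 to 4 it was at 35.3, 35.1, 59.4 and 64.6 CPM, from 475 to 878 reads. The EpCAM+ values hardly varied (coefficient of variation 3.56%, against 32.1% in EpCAM-) and all lay below the EpCAM- values. The mean was 14.6 ± 0.52 CPM in EpCAM+ and 48.6 ± 15.6 CPM in EpCAM-, a log2 fold change of -1.73 ± 0.20 (SE, edgeR adjusted p = 0.00026), and the EpCAM- level was 3.33 times the EpCAM+ level (95% interval 2.44 to 4.54). *Gm5475* lies across *Slc11a2* on the opposite strand and had 0 to 4 reads.

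*Slc25a37* encodes mitoferrin-1, the importer of iron into mitochondria of developing red cells (ENSMUSG00000034248, chromosome 14, 69241848 to 69285112). It was at 12.2 to 18.9 CPM in EpCAM+ and 12.4 to 15.5 CPM in EpCAM- libraries, which overlapped. The highest value was EpCAM+ replicate 3, and without that library the log2 fold change moved from 0.039 ± 0.15 (SE, edgeR adjusted p = 0.853) to -0.12. The 95% interval with all libraries was -0.30 to 0.38.

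Storage genes were abundant in both fractions. *Fth1*, the ferritin heavy chain that oxidizes iron as it enters the shell (ENSMUSG00000024661, chromosome 19, 9982703 to 9985092), was at 2750.0, 3283, 3201 and 3792 CPM in EpCAM+ replicates 1 to 4. In EpCAM- replicates 1 to 4 it was at 3041, 3835, 3406 and 4206 CPM. The fractions overlapped, but within each replicate number the EpCAM+ library was the lower one, with log2 differences of -0.22 to -0.09. Its log2 fold change was -0.15 ± 0.13 (SE, edgeR adjusted p = 0.358), and with the replicate number as a block it was -0.15 with an adjusted p of 0.0379, in a fit that called 50.3% of all tested genes. Libraries that share a number also shared part of their deviation from the mean of the fraction, and the sources used here do not say what a number stands for.

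*Ftl1*, the ferritin light chain (ENSMUSG00000050708, chromosome 7, 45457944 to 45459884), was at 1769 to 2527 CPM in EpCAM+ and 1896 to 2600.4 CPM in EpCAM- libraries. Within each replicate number the EpCAM+ library was again the lower one, and the replicate block gave an edgeR adjusted p of 0.285. The log2 fold change of *Ftl1* in the main fit was -0.068 ± 0.14 (SE, edgeR adjusted p = 0.719), with a 95% interval of -0.38 to 0.24. It was at 0.020 with upper-quartile scaling and 0.015 with library totals, scalings that moved the median of all tested genes from 0.021 to 0.11. Ferritin genes have many processed copies, so reads can be lost to them or gained from them. Of 16 ferritin-named rows in the table, 10 had no read in any library, *Ftl1-ps1* had 548 to 881 reads and *Ftl2-ps* 46 to 112, and together the copies took 2.04% to 2.48% of the *Ftl1* reads with copies included. For *Fth1* the copies took at most 0.00698%, and adding the copies to their parent genes changed none of the 10 calls.

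*Slc40a1* encodes ferroportin, the known exporter of iron from cells (ENSMUSG00000025993, chromosome 1, 45908068 to 45926523). It was at 2.03, 1.76, 3.30 and 4.93 CPM in EpCAM+ replicates 1 to 4, from 31 to 76 reads. In EpCAM- replicates 1 to 4 it was at 18.8, 14.6, 37.3 and 53.6 CPM, from 197 to 729 reads. The fractions did not overlap, and in both of them replicates 3 and 4 were higher than replicates 1 and 2. The mean was 3.00 ± 1.45 CPM in EpCAM+ and 31.1 ± 18 CPM in EpCAM-, a log2 fold change of -3.37 ± 0.46 (SE, edgeR adjusted p = 0.00051). This was the widest difference of the 10 genes, with an EpCAM- level 10.4 times the EpCAM+ level (95% interval 5.11 to 21.0), and 0.678% of tested genes had a lower log2 fold change. Its interval is also the widest of the 4 called genes, and its EpCAM- values differed among themselves from 14.6 to 53.6 CPM.

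The iron regulatory proteins differed from each other in their pattern. *Aco1*, iron regulatory protein 1, which serves as a cytosolic aconitase when it holds an iron-sulfur cluster (ENSMUSG00000028405, chromosome 4, 40143081 to 40198338), was at 31.3, 31.0, 27.2 and 26.7 CPM in EpCAM+ replicates 1 to 4. In EpCAM- replicates 1 to 4 it was at 35.5, 35.2, 42.0 and 51.7 CPM. The fractions did not overlap, but the lowest EpCAM- values lay only just above the highest EpCAM+ values. The log2 fold change was -0.50 ± 0.13 (SE, edgeR adjusted p = 0.0113), and the EpCAM- level was 1.42 times the EpCAM+ level (95% interval 1.16 to 1.73).

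*Ireb2*, iron regulatory protein 2, which is degraded in iron-replete cells (ENSMUSG00000032293, chromosome 9, 54863789 to 54912530), was at 17.2 to 19.4 CPM in EpCAM+ and 17.3 to 19.8 CPM in EpCAM- libraries. Its values varied little within each fraction, with a coefficient of variation of 5.35% in EpCAM+ and 5.54% in EpCAM-. Its log2 fold change was -0.0060 ± 0.093 (SE, edgeR adjusted p = 0.963), with a 95% interval of -0.21 to 0.20. With the same 2 other scalings it was at 0.080 and 0.077, a shift like that of the median of all tested genes.

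*Hfe*, a partner of the transferrin receptors in the sensing of iron and the gene of hereditary hemochromatosis (ENSMUSG00000006611, chromosome 13, 23702034 to 23710854), had the highest log2 fold change of the 10, 0.30 ± 0.23 (SE, edgeR adjusted p = 0.323). Its 95% interval ran from -0.22 to 0.81. It was at 12.7 to 25.6 CPM in EpCAM+ and 11.8 to 21.5 CPM in EpCAM- libraries, so the fractions overlapped over most of their range. The coefficient of variation was 28.8% in EpCAM+ and 27.8% in EpCAM-, from 160 to 395 reads per library, and the interval leaves room for an increase as well as a small decrease.

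**Figure D2:**
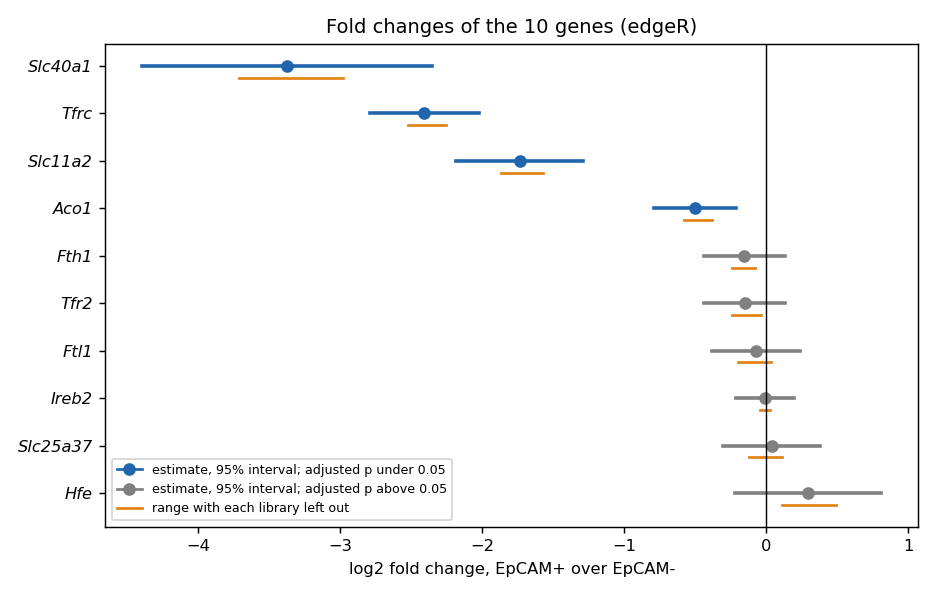
Log2 fold changes of the 10 iron genes (x axis, EpCAM+ over EpCAM-, 4 libraries each) with 95% intervals, in blue where the edgeR adjusted p was under 0.05 and in gray otherwise. Orange lines give the range of the estimate with any 1 library removed. *Slc40a1*, *Tfrc*, *Slc11a2* and *Aco1* lie below 0 with their whole interval, at -3.37, -2.41, -1.73 and -0.50, and the intervals of the other 6 cross 0.

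With any 1 of the 8 libraries removed, *Tfrc* stayed between -2.52 and -2.25, *Slc11a2* between -1.87 and -1.57, *Slc40a1* between -3.71 and -2.98, and *Aco1* between -0.58 and -0.38 on the log2 scale, and all 4 kept an edgeR adjusted p under 0.05 (at most 0.0352, for *Aco1*). EpCAM- replicates 3 and 4 held the highest values of these 4 genes. Without both of them, in a fit chosen after their values were seen, *Tfrc* was at -2.06, *Slc11a2* at -1.28 and *Slc40a1* at -2.49, all past the threshold (edgeR adjusted p at most 0.0053). *Aco1* fell to -0.30 with an adjusted p of 0.0833 and was no longer called. That fit called 23.1% of all genes tested in it.

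Per kilobase of transcript, with the gene lengths of the deposited table, *Fth1* and *Ftl1* stood far above the rest in both fractions. *Fth1* was at 3760.4 CPM per kilobase in EpCAM+ and 4183 in EpCAM-, *Ftl1* at 1514 and 1587, and *Tfr2* at 28.2 and 31.3. *Tfrc* came next after *Tfr2* in EpCAM-, at 15.9 CPM per kilobase and clear of its neighbors. In EpCAM+, at 3.00, it also came after *Aco1* and *Hfe* and overlapped *Slc25a37*. *Slc40a1* was the lowest of the 10 in EpCAM+, at 0.334 CPM per kilobase, and in EpCAM-, at 3.45, it overlapped *Hfe* and *Slc25a37*, its neighbors in the order. *Tfr2* thus exceeded *Tfrc* per kilobase in every library. The deposited FPKM rest on other gene lengths, and the order of *Fth1*, *Ftl1* and *Tfr2* at the top and of *Slc40a1* at the bottom in EpCAM+ was the same on that scale, and so were the places of *Aco1* and *Tfrc* in EpCAM+ and of *Tfrc* in EpCAM-. The places of the other genes were not the same on both scales.

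Ratios of reads within a library do not depend on how libraries are scaled. For every 100 *Fth1* reads, EpCAM+ replicates 1 to 4 held 0.644, 0.535, 0.576 and 0.540 *Tfrc* reads, and EpCAM- replicates 1 to 4 held 2.48, 2.04, 3.25 and 3.09. Reads of *Tfrc* relative to *Fth1* were thus lower in every EpCAM+ library than in any EpCAM- library. With *Tfrc* at -2.41 and *Fth1* at -0.15 on the log2 scale, this ratio mostly restates *Tfrc* and is not separate evidence. Protein was not measured. The mean log2 ratio differed by -2.22 (p = 0.0286 by an exact permutation test, two-sided, which 4 libraries against 4 cannot go below, and 0.0429 adjusted over the 3 ratios tested).

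The ratio of heavy to light ferritin chain overlapped between the fractions. There were 146 to 186 *Fth1* reads per 100 *Ftl1* reads in EpCAM+ and 160.0 to 202 in EpCAM- libraries, and the log2 ratio differed by -0.083 (exact two-sided permutation test, p = 0.514, adjusted p = 0.514). *Aco1* relative to *Ireb2* was 142 to 172 reads per 100 in EpCAM+ and 179 to 278 in EpCAM-, without overlap. Its log2 ratio differed by -0.48 (exact two-sided permutation test, p = 0.0286, adjusted p = 0.0429). With *Aco1* at -0.50 and *Ireb2* at -0.0060, that ratio mostly restates *Aco1*. With libraries paired by number, both ratios that differed were lower in EpCAM+ in 4 of 4 pairs (exact sign-flip test, p = 0.125, the smallest that 4 pairs allow).

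**Figure D3:**
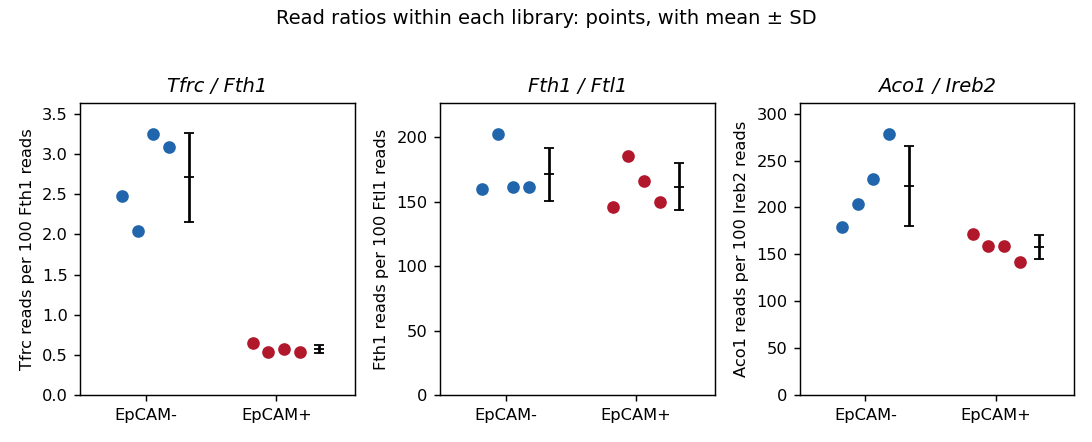
Reads of one iron gene per 100 reads of another within each library (y axes, linear from 0), for EpCAM- (blue) and EpCAM+ (red), with mean ± SD of 4 libraries in black. *Tfrc* per *Fth1* lies between 0.535 and 0.644 in EpCAM+ and between 2.04 and 3.25 in EpCAM-, *Fth1* per *Ftl1* overlaps, and *Aco1* per *Ireb2* does not.

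Around these 10 genes, 71 other iron genes were listed by role, also with earlier results of these data known, and 52 of them were tested. EpCAM+ cells had lower levels of 24 and higher levels of 7, while 21 did not pass, so 59.6% were called against 42.6% of all tested genes. Their median log2 fold change was -0.25, against 0.021 over all tested genes. The lists differed in share called, at 50% for endosomal uptake and reduction and 72.2% for mitochondrial iron and iron-sulfur clusters. It was 75% for iron chaperones and ferritin turnover and 33.3% for iron export and oxidation. For heme recycling it was 40% and for iron regulation 25%. The shares of endosomal uptake and heme recycling were thus close to the 42.6% of all tested genes. Leaving out EpCAM- replicates 3 and 4 together left 16 of the other iron genes lower and 2 higher, in a fit that called 23.1% of all genes tested in it.

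Among genes of endosomal uptake and reduction, 3 of 10 tested were lower and 2 higher. *Steap3*, the ferrireductase that prepares iron for DMT1 in the endosome of erythroid cells, fell from 37.9 ± 10.4 CPM in EpCAM- to 8.88 ± 1.86 CPM in EpCAM+ (log2 fold change -2.09 ± 0.21, edgeR adjusted p = 0.00018). Its EpCAM- values were 29.3, 29.6, 41.8 and 50.7 CPM in replicates 1 to 4, highest in the same libraries as *Tfrc* and *Slc11a2*. Of a pair of ZIP transporters that can carry iron not bound to transferrin, *Slc39a8* was lower in EpCAM+ (log2 fold change -0.98 ± 0.16, edgeR adjusted p = 0.00103). *Slc39a14* was higher (0.68 ± 0.17, edgeR adjusted p = 0.00914). *Rab11fip2*, a recycling endosome protein, was higher by 0.52 on the log2 scale (edgeR adjusted p = 0.0141).

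Of the genes for mitochondrial iron and iron-sulfur clusters, EpCAM+ cells had lower levels of 12 of 18 tested and a higher level of 1 (median log2 fold change -0.48). *Glrx5*, a glutaredoxin that passes on newly made clusters, was at 151 to 172 CPM in EpCAM+ and 293 to 436 CPM in EpCAM- libraries, a log2 fold change of -1.17 ± 0.12 (edgeR adjusted p = 0.00018). *Abcb10*, an inner membrane transporter that is known to stabilize mitoferrin-1, was lower by about the same amount (-1.09 ± 0.13, edgeR adjusted p = 0.00027), while *Slc25a37* itself was not called. The chaperone gene *Hspa9* was at a log2 fold change of -0.69 and the cluster carrier gene *Isca1* at -0.57 (edgeR adjusted p = 0.00105 and 0.0026).

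Among cytosolic iron chaperones and genes of ferritin turnover, 7 of 12 tested were lower and 2 higher. The changes were small, and the 4 with the lowest adjusted p were *Nubp2* (log2 fold change -0.65), *Ciapin1* (-0.49), *Bola2* (-0.48) and *Glrx3* (-0.34), which act in the assembly of iron-sulfur clusters in the cytosol. For iron export and oxidation, 3 genes were tested beside *Slc40a1*, and the heme exporter gene *Flvcr1* was lower, at 14.3 ± 2.01 CPM in EpCAM+ and 23.8 ± 3.18 CPM in EpCAM- (log2 fold change -0.73, edgeR adjusted p = 0.0021).

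Of 5 tested genes of heme recycling, *Blvrb*, a biliverdin reductase abundant in red cells, fell from 285 ± 107 to 36.8 ± 5.02 CPM, a log2 fold change of -2.95 ± 0.25 (edgeR adjusted p = 0.00012). *Hmox2*, the constitutive heme oxygenase gene, was higher by 0.47 (edgeR adjusted p = 0.0066). Among 4 tested genes of iron regulation, *Fbxl5*, whose protein directs the degradation of iron regulatory protein 2, was higher, at 50.4 ± 3.89 CPM in EpCAM+ and 37.6 ± 3.52 CPM in EpCAM- (log2 fold change 0.42, edgeR adjusted p = 0.0048). *Hamp*, *Hamp2* and *Hfe2*, which belong to the hepcidin pathway of the liver, had no read in any library.

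**Figure D4:**
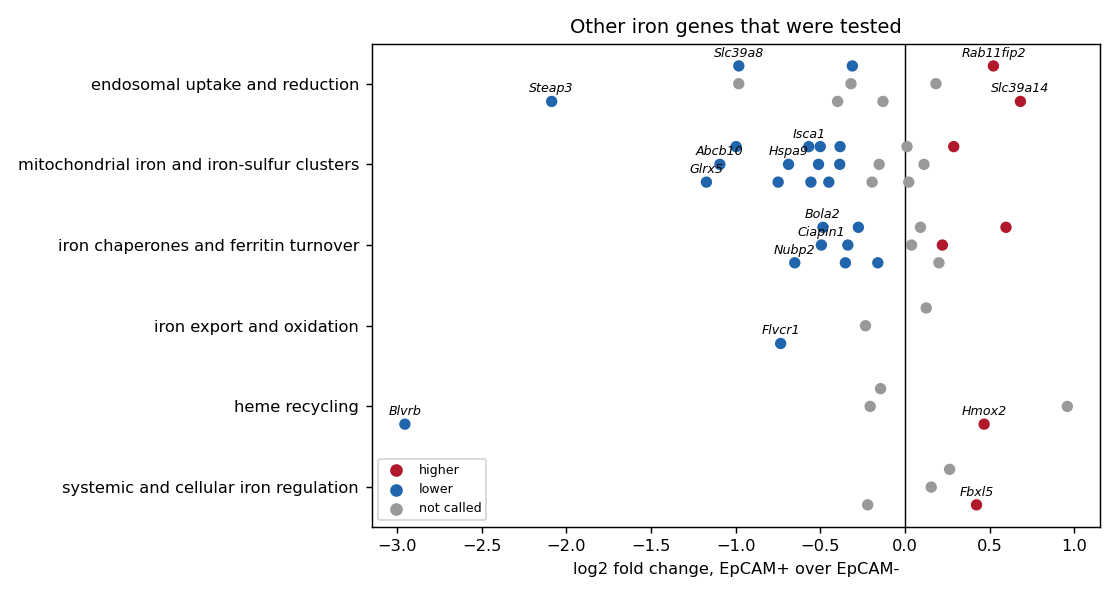
Log2 fold changes (x axis, EpCAM+ over EpCAM-) of the 52 tested genes of the 6 other iron lists, 1 point per gene, blue where lower, red where higher and gray where the edgeR adjusted p was not under 0.05. The height within a list only spreads the points. The lowest values belong to *Blvrb* (-2.95) and *Steap3* (-2.09), and 12 of 18 genes for mitochondrial iron and iron-sulfur clusters are blue.

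Erythroid markers moved with these genes. Of 16 tested erythroid markers, 11 were lower in EpCAM+ and 1, *Hbb-bt*, higher, so 75% were called against 42.6% of all tested genes. Their log2 fold changes had a median of -2.63, and *Icam4* had no read in any library. The carbonic anhydrase gene *Car1* was at 16 to 158 CPM in EpCAM+ and 1599 to 5956 CPM in EpCAM-, and the erythroid regulator *Klf1* was at 12.2 to 26.5 and 178 to 442 CPM. *Car2* did not pass the test (log2 fold change -0.15) and made up most of the summed level of the list in EpCAM+. That sum was 2341 to 3885 CPM in EpCAM+ and 4586, 4688, 9171 and 11770.4 CPM in EpCAM- replicates 1 to 4. In these EpCAM- libraries *Car1* (1599, 1905, 4313 and 5956 CPM) and *Car2* (2313, 2128, 3591 and 4220 CPM) made up most of it. *Klf1* was likewise highest in EpCAM- replicates 3 and 4, at 381 and 442 CPM. The EpCAM- replicates with the highest sums, 3 and 4, were those with the highest *Tfrc*, *Slc11a2*, *Slc40a1* and *Aco1*. In bulk samples, fewer cells of a type and less RNA per cell cannot be told apart, and the part of erythroid cells in the differences of the iron genes was not tested.

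**Figure D5:**
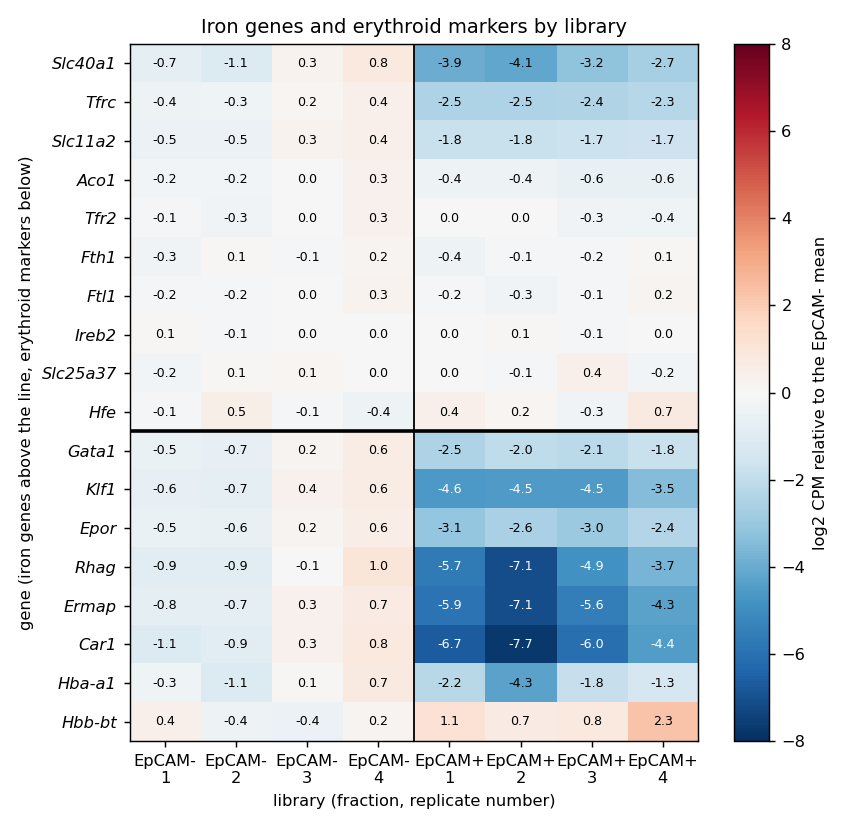
Log2 CPM relative to the mean of the EpCAM- libraries (color and printed value) for the 10 iron genes and 8 erythroid markers, chosen after their values were seen, in each library. *Slc40a1*, *Tfrc* and *Slc11a2* are above the EpCAM- mean in EpCAM- replicates 3 and 4, as are *Gata1*, *Klf1*, *Epor*, *Ermap*, *Car1* and *Hba-a1*. *Rhag* is above it in replicate 4 alone, and *Hbb-bt* shows another pattern.

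Markers of other cells were measured in the same way. The share called was 22.2% for macrophage, 44.4% for neutrophil, 62.5% for B and plasma cell and 60% for dendritic cell markers. It was 83.3% for LSK and 72.2% for cell cycle markers, against 42.6% of all tested genes. That of the neutrophil markers was close to the share of all genes. The lineage antibodies that the study's methods list for LSK staining, against MAC1, GR1, TER119, B220, CD3, CD4 and CD8, are meant to remove differentiated myeloid, erythroid, B and T cells in the sort. Of 9 tested macrophage markers, which matter here because macrophages of the marrow recycle iron and express *Slc40a1*, 2 were lower in EpCAM+ and none higher, and the summed level was 73.7 to 127 CPM in EpCAM+ and 99.9 to 126 CPM in EpCAM-. *Csf1r* was among the lower ones (log2 fold change -3.71), while *Cd68* and *Cd163* overlapped between the fractions. *Cd68* and *Csf1r* made up most of the sum in EpCAM-, which was 126, 115, 99.9 and 101 CPM in replicates 1 to 4. Less abundant members differed among the EpCAM- libraries. *Spic* and *C1qb* were highest in replicate 4, as *Slc40a1* was. *Spic* was at 2.94 CPM there against 0.592 to 0.874 CPM in the other EpCAM- libraries, and *C1qb* at 4.27 CPM against 0.296 to 0.956 CPM. *Vcam1* and *Adgre1* were instead highest in EpCAM- replicate 1, at 6.62 and 2.43 CPM. In EpCAM+ libraries *Spic* was at 1.76 to 4.22 CPM and *C1qb* at 0.170 to 4.67 CPM, and neither passed the test. Of 9 tested neutrophil markers, 4 granule genes were lower in EpCAM+, *Mpo*, *Elane*, *Prtn3* and *Ctsg*, which early myeloid progenitors also express. *Mpo* was at a log2 fold change of -3.74. The other 5 did not pass. They were the granule genes *Ngp* (-0.80), *Ltf* (-0.28) and *Camp* (-0.19), with *S100a8* at -0.15 and *S100a9* at 0.17. The sum of the list was 1098 to 1853 CPM in EpCAM+ and 11942 to 18563 CPM in EpCAM-, most of it *Mpo*.

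Cell cycle genes, which often move with *Tfrc*, were lower in EpCAM+ for 13 of 18 tested, with a median log2 fold change of -0.35 and summed levels of 5041 to 5688 CPM in EpCAM+ and 6304 to 7314 CPM in EpCAM-. The most abundant of them, *Mcm6*, did not pass (log2 fold change -0.20, edgeR adjusted p = 0.0695), and *Mcm7* was lower (-0.41, edgeR adjusted p = 0.0023). Markers of LSK cells were higher for 10 of 12 tested, with a median of 1.04 on the log2 scale. The most abundant of them, *Cd34* and *Cd48*, did not pass, at log2 fold changes of 0.28 and -0.32 (edgeR adjusted p = 0.104 and 0.238). *Kit*, which encodes the c-KIT of the gate, was at 244 to 328 CPM in EpCAM+ and 155 to 245 CPM in EpCAM- libraries. *Ly6a*, which encodes the SCA-1 of the gate, was at 116 to 351 CPM in EpCAM+ and at 71.7, 61.3, 16.4 and 15.7 CPM in EpCAM- replicates 1 to 4 (log2 fold change 2.28 ± 0.53, edgeR adjusted p = 0.0066). It was thus lowest in EpCAM- replicates 3 and 4, the libraries with the highest *Tfrc*, *Slc11a2*, *Slc40a1* and *Aco1*. B and plasma cell markers were higher for 5 of 8 tested, with sums of 473 to 4098 CPM in EpCAM+ and 217 to 338 CPM in EpCAM-, and *Pax5* had no read. *Jchain*, the most abundant of them, was at 199 to 3525 CPM in EpCAM+ and at most 0.273 CPM in EpCAM-. Dendritic cell markers were higher for 6 of 10 tested, with sums of 1174 to 13328 CPM in EpCAM+ and 461 to 735 CPM in EpCAM-. The class II genes *Cd74* and *H2-Ab1* were at log2 fold changes of 6.13 and 4.53 and made up most of the sum in EpCAM+. *Irf8*, the next most abundant, overlapped between the fractions and did not pass (0.78, edgeR adjusted p = 0.282). The part of each of these cell types in the iron gene differences was not tested. Leaving out EpCAM+ replicate 1, which had the highest B and plasma cell sum, ended none of the 4 calls.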

How the data were processed

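RNA-Seq libraries from 8 samples were analysed, 4 Zeb1-/- EpCAM+ and 4 Zeb1-/- EpCAM-, grouped by their titles. The authors amplified RNA with SMART-Seq v4 (the label gives no strand setting), aligned reads to GRCm38.p6 with STAR 2.6.1d and counted reads per gene with featureCounts 1.5.0-p3. The table they deposited holds raw counts, which all tests here used, FPKM computed by the authors, used here only for the order of levels, and the authors' own DESeq2 (1.20.0) fold changes and p-values, which were not used. How multi-mapped reads were counted and which annotation release was used are not given in the sources used here.

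Genes were kept by filterByExpr, scaled by TMM and tested two-sided with edgeR 4.0.16 (quasi-likelihood, R 4.3.3, limma 3.58.1), with Benjamini-Hochberg adjustment over 13560 genes and a threshold of 0.05. CPM are on TMM-scaled library sizes. Standard errors and 95% intervals came from the same fit. Within-library ratios were compared by exact permutation. No 2 libraries of a fraction were duplicates (chi-square per degree of freedom 9.80 to 91.7 over 12 pairs). Floors and counts cover counting error only, since reads carry no molecular identifiers, and nothing in the labels ties a library to a mouse, so p-values measure the spread between these libraries. The edgeR step was run on simulated data in which far fewer genes changed than were called here, so that check does not cover its error rate in these data. IREs were searched in GENCODE M21 transcripts, and plotting used matplotlib 3.10.9 in Python 3.11.15.

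Libraries with the same replicate number deviated together (correlation across genes 0.205 to 0.356 in 4 pairs, against -0.216 to 0.0396 in the 12 other pairs). All 4 same-number correlations passed the limit that had been set for reading the numbers as pairs. The labels do not say what a number stands for, so the main fit was left unpaired all the same, and a fit paired by number is given as an alternative. The 10 genes, the lists of other iron genes and the lists of cell type markers were chosen with earlier results of these data known. Named were all 10 genes, ferritin-named rows, *Epcam*, *Zeb1*, up to 4 called genes per iron list with the lowest adjusted p, and, of each cell type, up to 3 of the most abundant markers and those without reads. *Gm5475*, *Hbb-bt*, *Kit*, *Ly6a*, *Spic*, *C1qb*, *Vcam1*, *Adgre1*, *Prtn3*, *S100a8*, *S100a9* and the markers of the erythroid heat map other than *Car1* and *Klf1* were named after their values were seen. Alternatives were DESeq2 1.42.0, other scalings and filters, protein-coding genes alone, ferritin copies added to their parents, the replicate block and each library left out. Leaving out EpCAM- replicates 3 and 4 together was added after seeing the data.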

Additional observations from a re-analysis of the deposited data

How the results depend on the processing

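The calls of *Tfrc*, *Slc11a2* and *Slc40a1* held under all 18 alternatives and that of *Aco1* under 17, with *Aco1* at -0.30 (edgeR adjusted p = 0.0833) without EpCAM- replicates 3 and 4. The replicate block added *Fth1* to the calls (-0.15, adjusted p = 0.0379) and changed no other call of the 10 genes, while of the other iron genes it called 40, 30 lower and 10 higher, in a fit that called 50.3% of all tested genes. Leaving out EpCAM- replicates 3 and 4 moved the count of other iron genes called from 31 to 18, and of those higher from 7 to 2. The share of all tested genes called also fell, from 42.6% to 23.1%. Genes near 0 changed sign under some settings. *Ireb2* turned from -0.0060 to 0.080 with upper-quartile scaling, 0.077 with library totals, 0.019 with at least 10 counts in every library, and -0.045 to 0.025 with 1 library left out. *Ftl1* turned from -0.068 to 0.020 with upper-quartile scaling, 0.015 with library totals, 0.084 without EpCAM- replicates 3 and 4, and -0.19 to 0.037 with 1 library left out. *Slc25a37* ran from -0.12 to 0.11 with 1 library left out, and *Tfr2* turned to 0.030 without EpCAM- replicates 3 and 4. Upper-quartile scaling and library totals both moved the median of all tested genes from 0.021 to 0.11. With libraries paired by number, the ratios of *Tfrc* to *Fth1* (-2.22) and *Aco1* to *Ireb2* (-0.48) had an exact p of 0.125, the smallest 4 pairs allow. The *Aco1* to *Ireb2* ratio ran from -0.58 to -0.37 with 1 library left out, with an exact p of 0.0571 when an EpCAM+ library was left out. The cause of these shifts was not tested. Depth limited *Slc40a1* most among the 10 genes, with 31 to 76 reads in EpCAM+ libraries.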
